A study of Mus musculus with 17 samples.

Results

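The genes described here write, copy, erase or read marks on chromatin: Dnmt1, Uhrf1, Dnmt3a, Dnmt3b, Tet1, Tet2, Tet3, H2afy, H2afy2 and Ezh2. They are 10 of the 26422 gene symbols listed in the count tables, and they were picked by symbol with earlier results of the same data in view, namely their differences between KPT-330 and control and their levels by cell type. Values of those kinds are therefore given as descriptions, without a test, and nothing is read from where they lie against a threshold. All 10 were detected in each of the 17 libraries, and all 10 passed the filter on low counts in the comparisons that used all cells.

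The libraries were single-cell RNA-seq (Seq-Well S3, a nanowell method that counts unique molecular identifiers, UMIs) of small intestinal organoids grown from C57BL/6 mice. Stem-enriched organoids in ENR+CV medium (EGF, Noggin, R-spondin 1, the GSK3 inhibitor CHIR99021 and valproic acid, itself a histone deacetylase inhibitor) were sampled at day 0 in 2 libraries. The others were moved to ENR+CD, in which the Notch pathway inhibitor DAPT replaces valproic acid and cells differentiate towards the Paneth lineage. These were sampled at days 0.25, 1, 2, 3, 4 and 6, in 7 control libraries and in 8 libraries that also received 160 nM KPT-330, an inhibitor of the nuclear exporter XPO1. All groups share EGF, Noggin, R-spondin 1 and CHIR99021, and each library pooled many organoids. Control and treated conditions had 1 library at most time points, with 2 KPT-330 libraries at day 3 and 2 of each condition at day 6, and what separates replicates is not stated in the labels, so p-values measure only the spread between these libraries, which may be technical.

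In mammals, cytosine methylation at CpG sites is copied after each round of DNA replication by DNMT1, which UHRF1 brings to newly made DNA. DNMT3A and DNMT3B place new methyl groups, and the TET enzymes oxidise methylcytosine as a step in its removal. EZH2 is the catalytic subunit of Polycomb repressive complex 2 and methylates lysine 27 of histone H3. H2afy and H2afy2 encode macroH2A1 and macroH2A2, histone variants with a large globular domain that sit mostly in inactive chromatin. In the intestine, DNMT1 and UHRF1 are known for their role in the dividing cells of the crypt.

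On mm10 with GENCODE M21 models, Dnmt1 spans chr9:20907209-20959888 (minus strand), Uhrf1 chr17:56303321-56323486 (plus), Dnmt3a chr12:3806007-3914443 (plus) and Dnmt3b chr2:153649450-153687730 (plus). Tet1 spans chr10:62804570-62908996 (minus), Tet2 chr3:133463679-133545139 (minus) and Tet3 chr6:83362373-83459084 (minus). H2afy spans chr13:56073619-56136361, H2afy2 chr10:61738665-61784147 and Ezh2 chr6:47530139-47595341, all on the minus strand. Dnmt3a, Dnmt3b, Tet2 and H2afy overlap annotated antisense RNAs, and Ezh2, Tet3 and H2afy2 overlap other genes on the opposite strand. The sources used here do not state whether counting used strand, so reads of the partners cannot be told apart.

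The 19877 cells kept by the study held 3458887 to 12433109 UMIs per library, with a median of 2676 to 8463 UMIs per cell. Cells were assigned to types by clustering and by marker lists that the study had drawn from these samples, with the 10 genes left out of the clustering. Stem III-like cells were led by mitotic genes such as Mki67 and Top2a. Stem II-like cells were led by Gm10800, Aqp4 and Clca4, with the S phase genes Dtl and Mcm3 further down. They had 1 stem II marker among their 10 leading genes, which also include Uhrf1. In the untreated libraries Mki67 was at 3.63 UMIs per 10000 in stem II-like cells and at 23.1 in stem III-like cells. Enteroendocrine-like cells formed 2 clusters, a Neurog3-led cluster of 1227 cells and a hormone-led cluster of 1195 cells. One cluster of 67 cells had no marker of its own type among its leading genes and was left unnamed. Summed over all cells of a library, the Paneth list reached 2219 UMIs per 10000 in the highest library. Tuft markers stayed at or below 0.0741 in every library and fibroblast markers at or below 0.0223. Immune markers reached 0.701, and 4 of the 6 were found in fewer than 10 cells. Such sums do not bound the level in any single cluster. A total of 14 barcode sequences occurred in more than 1 library, which touches 28 cells. Cell-type levels below are UMIs of a gene per 10000 UMIs, summed over the cells of a type in each library with at least 20 such cells. Which libraries, and so which days, reach that number differs between types.

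Dnmt1, Uhrf1 and Ezh2 were each highest in stem III-like cells of the untreated libraries. Dnmt1 stood at 3.47 ± 0.819 (SD, n = 9 libraries) UMIs per 10000 in stem III-like cells and at 2.38 ± 0.545 (n = 8) in stem II-like cells. It was at 0.962 ± 0.138 (n = 6) in stem I-like cells, which carry Wnt target genes such as Nkd1 and Tnfrsf19. The lowest Dnmt1 levels were 0.297 ± 0.0284 (n = 5) in Paneth-like and 0.240 ± 0.148 (n = 9) in enterocyte-like cells. The order thus ran from stem III-like and stem II-like cells to the mature types, with stem III-like cells highest in 8 of 9 untreated libraries. However, none of the 9 gaps between neighbouring types in this order was larger than the 2 SDs added together.

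Uhrf1 had the steepest profile. Its level was 2.47 ± 0.557 (n = 9) in stem III-like and 1.93 ± 0.513 (n = 8) in stem II-like cells, then 0.522 ± 0.592 (n = 8) in Neurog3-led enteroendocrine-like cells, a gap larger than the added SDs. At the low end, Uhrf1 was at 0.0793 ± 0.0627 (n = 5) in Paneth-like and 0.0729 ± 0.0453 (n = 5) in early Paneth-like cells, which did not differ beyond their spread. Ezh2 was broader, at 2.52 ± 0.619 (n = 9) in stem III-like cells, 1.64 ± 0.385 (n = 8) in Neurog3-led enteroendocrine-like cells and 1.51 ± 0.346 (n = 8) in stem II-like cells. Its lowest level was 0.322 ± 0.147 (n = 9) in enterocyte-like cells. The study's own marker table lists Dnmt1, Uhrf1 and Ezh2 for stem III cells of these samples, so these orders carry no independent weight.

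Dnmt3a had another order, with its highest level in hormone-led enteroendocrine-like cells. There it was at 2.39 ± 0.354 (n = 5), against 1.43 ± 0.581 (n = 8) in the Neurog3-led cluster, a gap larger than the added SDs. The hormone-led mean holds libraries of days 2 to 6 only, and the Neurog3-led mean also those of days 0, 0.25 and 1. The gap thus mixes day with cell type. Within each of the 5 libraries with both clusters, the hormone-led cells were the highest type. In each of the stem-like types it was between 0.705 and 0.819, and in Paneth-like cells at 0.398 ± 0.143 (n = 5). Dnmt3a is also in the study's enteroendocrine marker list. Dnmt3b, the other de novo enzyme, was sparse, with 0.173 ± 0.0873 (n = 9) in stem III-like and 0.169 ± 0.0678 (n = 8) in stem II-like cells and 0.0228 ± 0.0237 (n = 9) in enterocyte-like cells. No neighbouring pair of types differed beyond the added SDs for Dnmt3b.

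The 3 TET genes were highest in Neurog3-led enteroendocrine-like cells, without a clear gap to the next type. Tet3 was at 1.97 ± 0.386 (n = 8) there and at 1.94 ± 0.247 (n = 6) in stem I-like cells, and its lowest level was 0.910 ± 0.263 (n = 5) in Paneth-like cells. Tet2 ran from 0.953 ± 0.225 (n = 8) in the Neurog3-led cluster to 0.287 ± 0.144 (n = 9) in enterocyte-like cells. Tet1 was near the detection limit, with 35 UMIs in all Neurog3-led cells of the untreated libraries and 2 in enterocyte-like cells.

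Of the macroH2A genes, both were detected in each of the 10 types, H2afy2 with few UMIs. H2afy ran from 4.32 ± 0.941 (n = 9) in stem III-like cells to 1.496 ± 0.334 (n = 5) in Paneth-like cells. Its splice forms were not separated in these gene-level counts. H2afy2 was at 0.186 ± 0.112 (n = 8) in Neurog3-led and 0.173 ± 0.117 (n = 5) in hormone-led enteroendocrine-like cells, at 0.119 ± 0.0566 (n = 9) in stem III-like cells, and at 0.00683 ± 0.0130 (n = 9) in enterocyte-like cells, where 3 UMIs were counted in all. For both genes, no neighbouring pair of types differed beyond the added SDs.

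**Figure D1:**
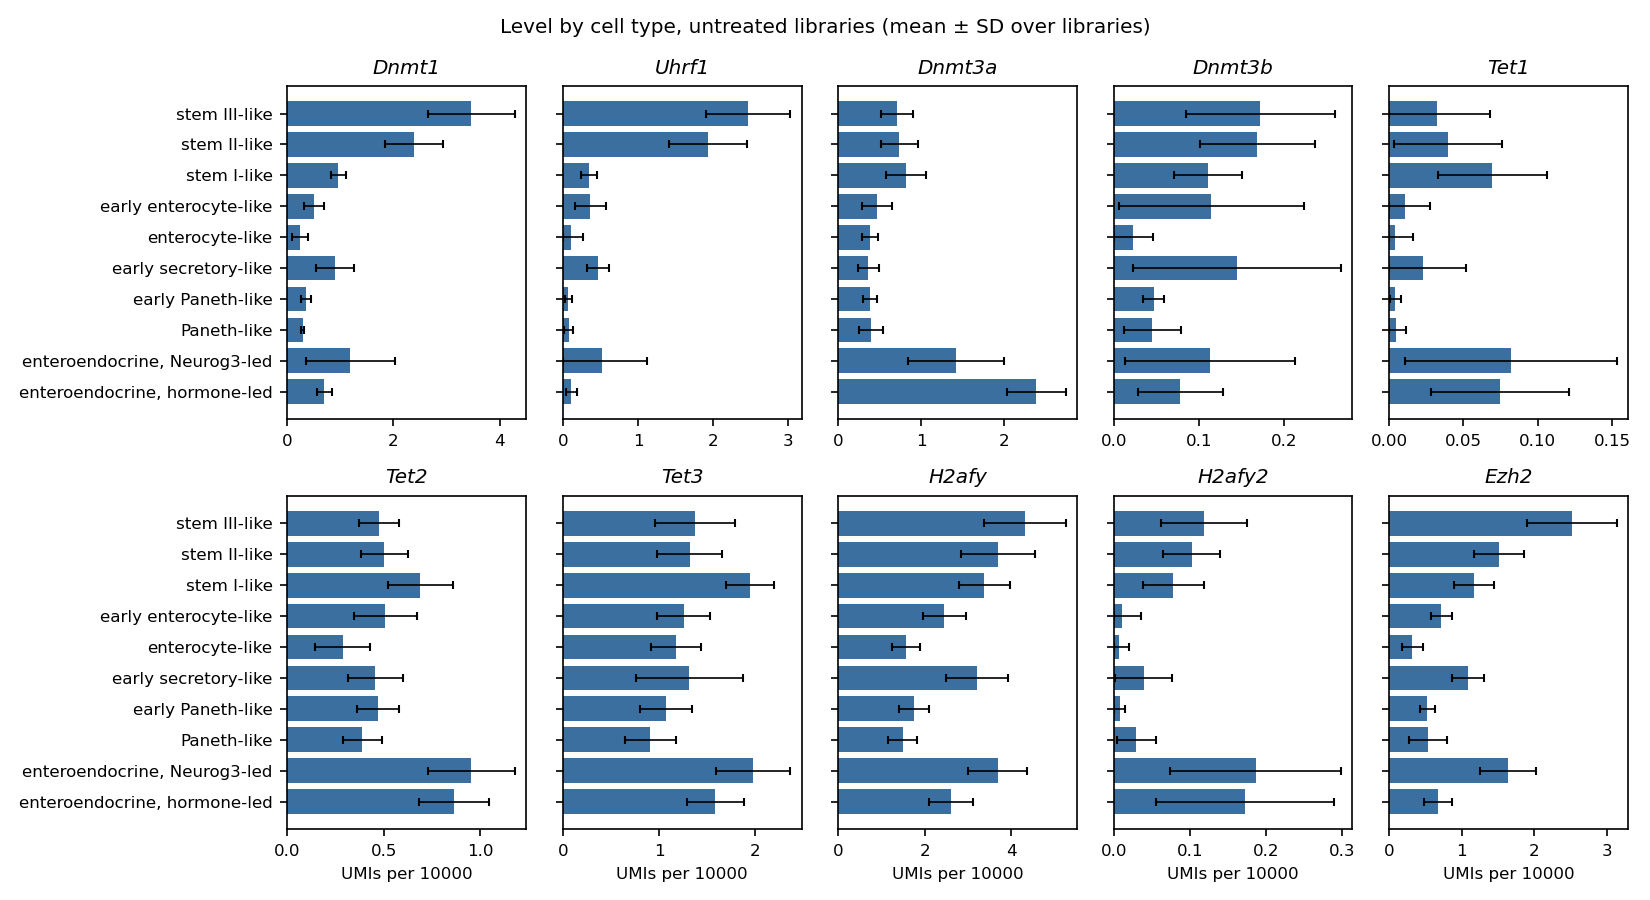
Level of each gene (UMIs per 10000 UMIs, horizontal axis, starting at 0) in 10 cell types of the untreated libraries; bars are means over libraries with at least 20 cells of the type and lines are SDs. Dnmt1 and Uhrf1 peak in stem III-like and stem II-like cells, and Dnmt3a in hormone-led enteroendocrine-like cells.

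The next question was how the genes changed over differentiation without the inhibitor, tested as a slope on day across the 9 untreated libraries (edgeR quasi-likelihood test with Benjamini-Hochberg adjustment over 12493 genes). Of the 10 genes, 4 fell and none rose. In this comparison 19.9% of all tested genes fell and 18.6% rose. The genes were picked with their levels by cell type in view, and the shares of the cell types changed over the same days. Their slopes and p-values are therefore not independent of that choice, and nothing is read from their count. In whole libraries, fewer cells of a type and less RNA per cell cannot be told apart.

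Dnmt1 was at 1.96 and 2.28 UMIs per 10000 in the day 0 libraries, 2.15 at day 0.25, 1.46 at day 1, 0.791 at day 2, 0.780 at day 3, 0.851 at day 4, and 0.648 and 0.755 at day 6. The day 1 library lay between the higher values of days 0 and 0.25 and the lower values from day 2 onwards. The untreated libraries of days 0.25 and 1 carry replicate number 1, and those of days 2, 3 and 4 carry number 2. They listed 21001 and 21652 genes at days 0.25 and 1, and 16616 to 17422 from day 2 to day 4. Both numbers occur at days 0 and 6. For any gene, the step from day 1 to day 2 cannot be told apart from this change of number. The slope of Dnmt1 was -0.25 ± 0.046 (SE) log2 units per day (edgeR adjusted p = 0.00292). Uhrf1 went from 1.56 and 1.88 at day 0 and 1.57 at day 0.25 through 0.882 at day 1 to between 0.288 and 0.384 from day 2 onwards. Its slope was -0.38 ± 0.076 per day (edgeR adjusted p = 0.00427).

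Ezh2 and Dnmt3b fell as well. Ezh2 was at 1.15 and 1.66 at day 0, 1.80 at day 0.25 and 1.34 at day 1, and between 0.721 and 0.989 from day 2 onwards, with a slope of -0.15 ± 0.038 per day (edgeR adjusted p = 0.011). Dnmt3b was at 0.170 and 0.259 in the day 0 libraries and at 0.0692 and 0.0541 in those of day 6, with a slope of -0.24 ± 0.060 (edgeR adjusted p = 0.0106). The medium changed together with the step from day 0 to day 0.25. In the ENR+CD libraries alone, Dnmt3b had a slope of -0.16 ± 0.062 and did not pass (edgeR adjusted p = 0.0995), whereas Dnmt1, Uhrf1 and Ezh2 passed under all 14 alternatives. The alternatives draw on the same 9 libraries and the same choice of genes, so they add no independent weight.

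The other 6 genes did not pass the test. H2afy had a slope of -0.07 ± 0.032 (edgeR adjusted p = 0.102) and H2afy2 of 0.00 ± 0.053 (adjusted p = 0.962). H2afy2 stayed between 0.0401 and 0.0915 UMIs per 10000 in the 9 libraries, the lowest being the day 0.25 control and the highest a day 0 library. Slopes were 0.06 ± 0.036 for Dnmt3a, 0.09 ± 0.11 for Tet1, 0.07 ± 0.038 for Tet2 and 0.03 ± 0.046 for Tet3.

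**Figure D2:**
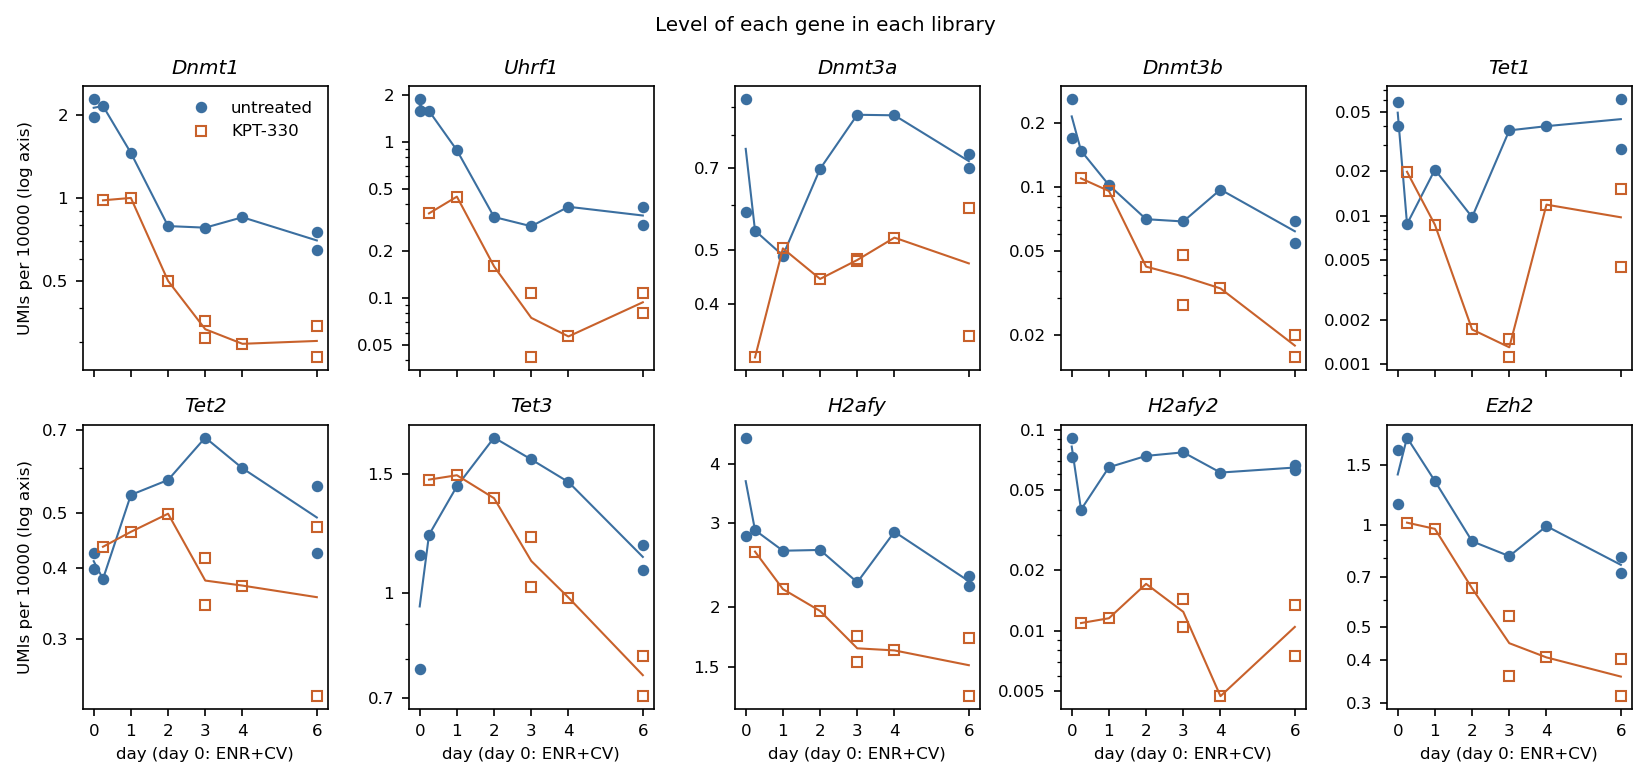
Level of each gene (UMIs per 10000 UMIs, log axis) against day in each of the 17 libraries; filled circles are untreated libraries (day 0 in ENR+CV, later days in ENR+CD control), open squares are KPT-330 libraries, and lines join the means of each day. The 8 KPT-330 libraries lie below all 9 untreated libraries for H2afy2, between 0.00474 and 0.0171.

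Stem III-like and stem II-like cells became rarer over the same days. Together they made up 78.9% and 82.8% at day 0 and 6.08% and 8.38% in the day 6 controls. The summed level of 12 S phase genes was 10.2 and 13.6 UMIs per 10000 at day 0, against 3.04 and 3.47 at day 6. Within stem III-like cells, Dnmt1 was not lower in the late libraries: it was at 2.76 and 2.71 at day 0, 2.58 at day 0.25, 3.08 at day 1, 3.33 at day 2, 5.03 at day 3, 4.06 at day 4, and 4.19 and 3.46 at day 6. Uhrf1 in these cells was between 1.83 and 2.19 up to day 1 and between 1.88 and 3.30 from day 2 onwards. Ezh2 in the same cells ranged from 1.47 at day 0 to 3.42 at day 4. These within-type values are a description, since the stem III-like cells were themselves found by genes that vary with Dnmt1.

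**Figure D3:**
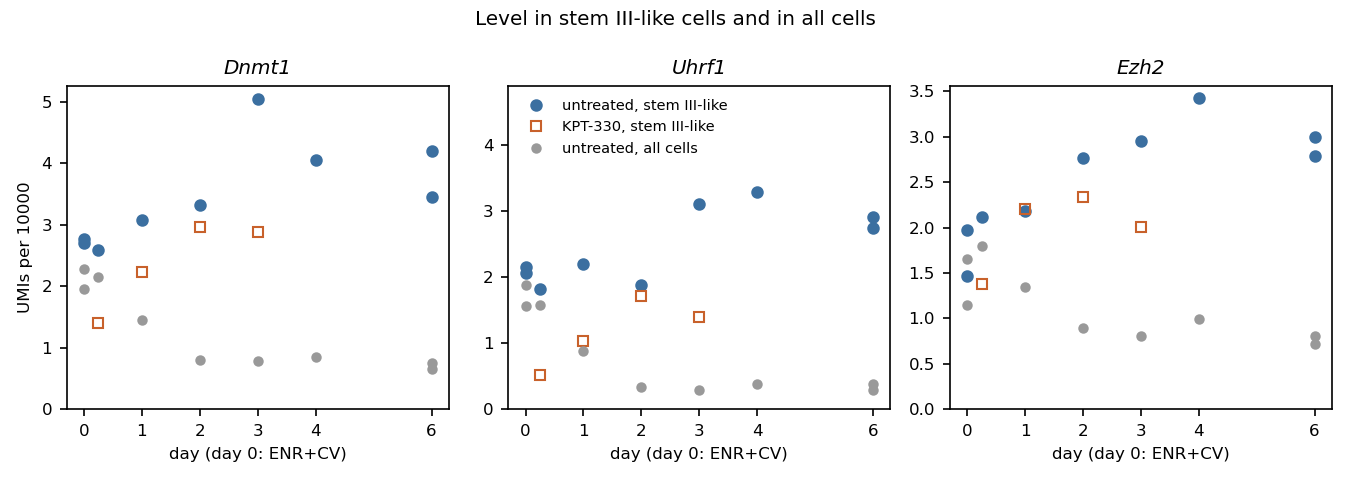
Level (UMIs per 10000 UMIs, axis from 0) of Dnmt1, Uhrf1 and Ezh2 against day, in stem III-like cells of untreated libraries (filled circles) and KPT-330 libraries (open squares, at least 20 cells) and in all cells of untreated libraries (grey). The all-cell levels fall after day 0.25, while the stem III-like levels of the untreated libraries do not show this fall.

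Because Dnmt1, Uhrf1, Ezh2 and Dnmt3b fell together, the 250 bases before their RefSeq starts were searched on both strands for words bound by E2F factors, which act at the start of S phase (TTTCCCGC, TTTGGCGC, TTTCGCGC and TTTGCCGC), for the CCAAT box, and for the cell-cycle element TTTGAA. Sequences are from RefSeq (GRCm38.p6, the same assembly as mm10), which has windows for all 10 genes, 15 in total. Among 32841 windows of all genes (10 incomplete windows left out), 1.86% hold an E2F word, 33.9% a CCAAT box and 16% a TTTGAA word. An E2F word occurs in 1 of 3 windows of Dnmt1, in 1 of 2 of Uhrf1 and in none of the windows of the other 8 genes. The sequences below show these words in capitals, in the window of Uhrf1 (chr17:56304063-56304312, plus strand), a piece of the third window of Dnmt1, inside an annotated exon of another Dnmt1 transcript (chr9:20952835-20952859, minus strand), the part of the Ezh2 window free of annotated exons (chr6:47595059-47595183, minus strand) and the window of Dnmt3b (chr2:153649199-153649448, plus strand).
Uhrf1: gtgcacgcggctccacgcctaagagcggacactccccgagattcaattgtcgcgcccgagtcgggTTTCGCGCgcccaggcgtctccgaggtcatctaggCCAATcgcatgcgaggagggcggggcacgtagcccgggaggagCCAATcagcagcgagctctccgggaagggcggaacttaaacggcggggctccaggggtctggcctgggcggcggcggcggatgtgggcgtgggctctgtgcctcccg
Dnmt1: CCAATTGGtttccgcgcGCGCGAAA
Ezh2: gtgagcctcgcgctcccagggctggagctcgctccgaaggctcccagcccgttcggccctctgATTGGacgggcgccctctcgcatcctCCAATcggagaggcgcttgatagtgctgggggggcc
Dnmt3b: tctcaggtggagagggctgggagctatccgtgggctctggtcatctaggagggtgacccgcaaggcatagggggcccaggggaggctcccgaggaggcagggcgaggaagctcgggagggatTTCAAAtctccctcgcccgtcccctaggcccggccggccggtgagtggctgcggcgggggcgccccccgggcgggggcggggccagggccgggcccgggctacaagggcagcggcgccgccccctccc

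Uhrf1 thus shows an E2F word and 2 CCAAT boxes, and the Dnmt1 piece an E2F word on the opposite strand beside overlapping CCAAT boxes on both strands. In Ezh2 the capitals are CCAAT boxes, on either strand, and in Dnmt3b a TTTGAA word on the opposite strand. H2afy, H2afy2, Tet1, Tet2 and Dnmt3a hold none of these words in their windows. The H2afy2 window lies wholly in annotated exon sequence, and neither it nor the first Dnmt3a window could be matched to the start of a GENCODE transcript. Tet3 holds 1 CCAAT box, and the first Dnmt1 window holds 4 CCAAT boxes and a TTTGAA word on the opposite strand. A match of letters describes the sequence only, and which start is used in these cells was not measured.

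The related genes of the same pathways moved in both directions over time. The list held 55 genes, of which 54 were tested: 12 rose, 13 fell and 29 did not pass, with a median slope of -0.0043 against 0.0024 over all genes. These counts are near the background, in which 18.6% of all tested genes rose and 19.9% fell, so the counts by group describe the list and set it apart from nothing. Among 6 maintenance partners, 4 fell and none rose. Pcna, the sliding clamp at the replication fork, had a slope of -0.24 ± 0.042 (edgeR adjusted p = 0.00259), Cdca7, which recruits the remodeller HELLS, of -0.20 ± 0.030 (adjusted p = 0.00129), and Lig1, the DNA ligase of lagging-strand synthesis, of -0.32 ± 0.066 (adjusted p = 0.00491). Ahcy, which clears the by-product of methyl transfer, fell with a slope of -0.23 ± 0.028 (edgeR adjusted p = 0.000487).

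The genes that rose were in other groups. Of the demethylation list 3 of 7 rose and none fell. Cxxc5, a CXXC zinc finger gene, had a slope of 0.50 ± 0.085 (edgeR adjusted p = 0.00224), and its relative Cxxc4 of 0.44 ± 0.10 (adjusted p = 0.00801). Of the methyl-CpG readers 3 of 7 rose, among them Zbtb4 with 0.38 ± 0.072 (edgeR adjusted p = 0.00343). Of the 10 PRC2 genes 5 fell and 3 rose. Phf1, an accessory subunit, rose by 0.34 ± 0.076 per day (edgeR adjusted p = 0.00684). Of the 9 histone variant and partner genes 3 fell and none rose, of the 10 PRC1 genes 2 rose and none fell, of the H3K27 demethylases 1 of 2 rose, and of the methyl donor genes 1 of 3 fell. In the ENR+CD libraries alone the list gave 3 that rose and 4 that fell, and Cxxc4 and Phf1 did not pass (edgeR adjusted p = 0.0564 and 0.0699).

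**Figure D4:**
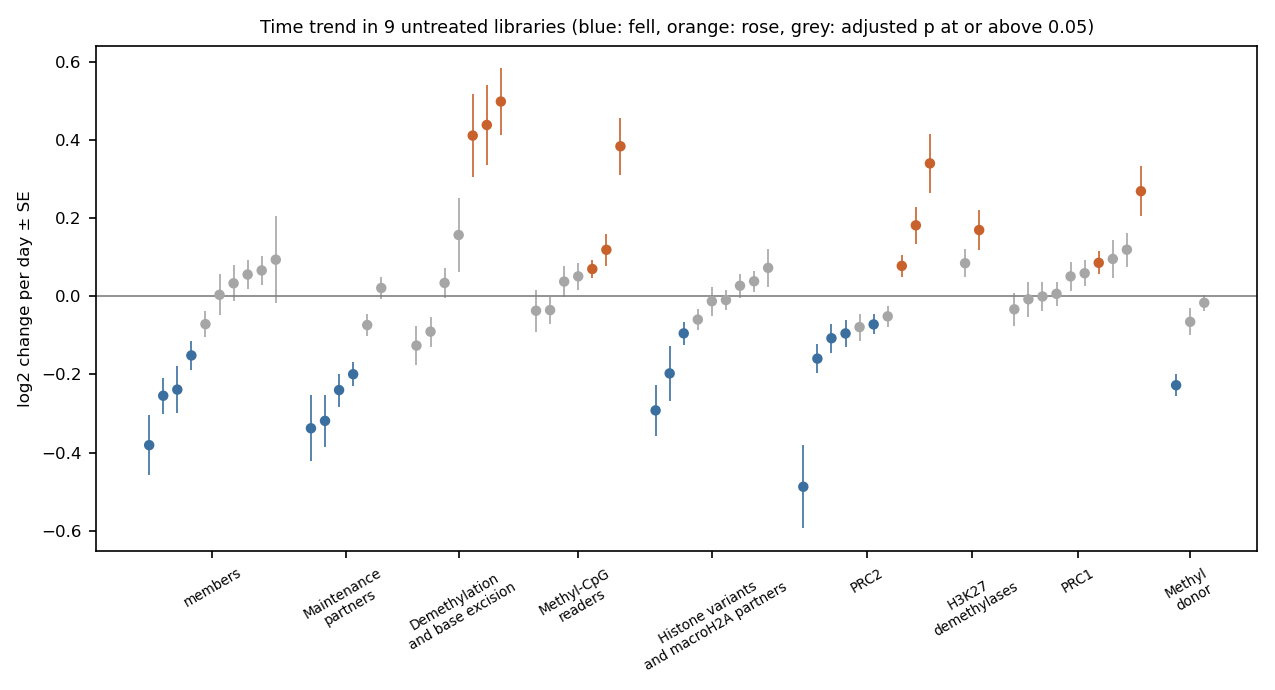
Slope on day (log2 units per day ± SE, edgeR) in the 9 untreated libraries for the 10 genes (members) and the 54 related genes tested, ordered by slope within each group; blue fell, orange rose and grey did not pass. Of the 10 genes 4 fell and none rose, and of the 54 related genes 12 rose and 13 fell.

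KPT-330 was then set against control at the same time points, over the 7 control and 8 KPT-330 libraries in ENR+CD with time point as a factor. The exporter gene Xpo1 was higher with the inhibitor at every time point, by 1.5 ± 0.086 log2 units. The 10 genes were picked on this contrast, so nothing is read from their count: 8 of 10 were past the threshold, all 8 lower, where 28.6% of the 12812 genes tested were past it and 14.2% were past it and lower. Fitted values scale each library by the bulk of its genes (TMM). With plain library totals the median of all genes shifted to -0.27 log2 units, and the genes past the threshold were 470 higher and 4900 lower in place of 1841 higher and 1820 lower. The levels per 10000 UMIs below carry that shift, so genes that are lower with KPT-330 differ by more in them than in the fit.

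H2afy2 had the largest difference of the 10 genes. It was at 0.0401 to 0.0773 UMIs per 10000 in the control libraries, with a median of 0.0651, and at 0.00474 to 0.0171 in the KPT-330 libraries, with a median of 0.0113. Every KPT-330 library lay below every control library, which holds for 1.51% of all genes tested, whereas the reverse holds for 0.109%. Both shares are from levels per 10000 UMIs and carry the shift to lower values described above. The counts were 28 to 83 UMIs per control library and 2 to 20 per KPT-330 library, so the size of the ratio in any single library is poorly determined. The fitted difference was -2.21 ± 0.20 log2 units. It was lower at 6 of 6 time points, from a log2 ratio of -1.87 at day 0.25, with 32 UMIs against 5, to -3.69 at day 4, with 43 against 2. The span of H2afy2 overlaps Aifm2 on the opposite strand. Aifm2 itself differed by 0.01 ± 0.095 log2 units (edgeR adjusted p = 0.977).

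Uhrf1 and Dnmt1, the pair that copies methylation, were lower at 6 of 6 time points each. Uhrf1 was at 0.288 to 1.57 UMIs per 10000 in the controls (median 0.383) and at 0.0417 to 0.445 in the KPT-330 libraries (median 0.108), with a fitted difference of -1.48 ± 0.20. Dnmt1 was at 0.648 to 2.15 in the controls (median 0.791) and at 0.264 to 1.00 with KPT-330 (median 0.351), with a fitted difference of -0.80 ± 0.093. Across all days the groups overlap for both, since the early KPT-330 libraries reach the late controls. At day 0.25, Uhrf1 was at 1.57 in the control and 0.348 with KPT-330, and Dnmt1 at 2.15 and 0.980.

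Ezh2 was also lower at each time point, at 0.721 to 1.80 in the controls (median 0.893) and 0.314 to 1.01 with KPT-330 (median 0.473), with a fitted difference of -0.59 ± 0.10. Dnmt3b differed by -0.68 ± 0.19, with 0.0541 to 0.148 in the controls and 0.0157 to 0.109 with KPT-330. Dnmt3a differed by -0.35 ± 0.096 and was lower at 5 of 6 time points, with 0.489 to 0.870 against 0.322 to 0.595. The groups overlap for Ezh2, Dnmt3b and Dnmt3a.

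Tet1 differed by -1.66 ± 0.48, and its values show how few molecules stand behind it: 7 to 35 UMIs per control library and 1 to 9 per KPT-330 library. At day 0.25 it was higher with KPT-330 (9 UMIs against 7) and at the other 5 time points lower. Without day 3 the Tet1 difference was -1.09, and without day 6 it was -1.66, and neither was past the threshold. Tet2 differed by -0.15 ± 0.11 and Tet3 by -0.05 ± 0.077, and neither was past the threshold. H2afy differed by -0.20 ± 0.071, at 2.21 to 2.90 in the controls and 1.30 to 2.62 with KPT-330. Its place past the threshold was lost under 13 of 20 alternatives, and nothing is read from the place of any of these genes.

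Markers of cycling moved with these genes. Mki67 differed by -0.99 ± 0.22 log2 units and Top2a by -0.53 ± 0.18 between KPT-330 and control. At day 0.25 the S phase list was at 12.3 UMIs per 10000 in the control and 5.31 with KPT-330, the G2/M list at 7.35 and 6.97, stem III-like cells were 55.7% and 30.7% of cells, and stem II-like cells 27.5% and 49.5%. The sum of these 2 types was close between conditions on the early days, at 83.2% and 80.1% at day 0.25 and 38.7% and 37.9% at day 1. At day 6 stem III-like plus stem II-like cells were 6.08% and 8.38% of control cells, against 0.984% and 2.00% of KPT-330 cells. Neurog3-led enteroendocrine-like cells, in which H2afy2 was highest, were 9.24% of control cells and 1.65% of KPT-330 cells at day 4. The hormone-led cells, with a similar H2afy2 level, were 7.18% and 9.58% at day 4. At day 2 the hormone-led share was 1.888% in the control and 0.4304% with KPT-330. At day 3 it was 8.955% in the control, against 3.197% and 5.113% with KPT-330. At day 6 it was 15.07% and 14.95% in the controls, against 6.885% and 21.48% with KPT-330. The part of these markers and shares in the differences was not tested here other than by the common mix that follows.

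To show the difference apart from the cell-type mix, the level in each library was recomputed with the same mix of types in both conditions of a time point, over types with at least 20 cells in every library of that day. H2afy2 then differed by -2.10 ± 1.06 (SD over 6 time points) log2 units, against -2.57 ± 0.63 as measured, and was lower at 6 of 6 time points. Dnmt1 differed by -0.44 ± 0.29 against -1.05 ± 0.37 as measured, and Ezh2 by -0.34 ± 0.26 against -0.83 ± 0.33, both lower at 6 of 6. Uhrf1 differed by -1.15 ± 1.02 against -1.79 ± 0.68 and was lower at 5 of 6 time points, the exception being day 3 with 0.07. H2afy went from -0.45 ± 0.24 to -0.16 ± 0.13, Dnmt3b from -0.91 ± 0.65 to -0.53 ± 0.48 and Dnmt3a from -0.59 ± 0.32 to -0.27 ± 0.31. At day 6 the types compared hold at least 66.7% of the UMIs of each library, and at other days at least 90.2%. On days 3, 4 and 6, stem III did not reach 20 cells in every library, nor did stem II. The same held at day 6 for stem I and for the Neurog3-led cluster. On those days the recomputed levels therefore differ from the measured ones by the absence of these types too, not by the mix alone. For comparison, Mki67 had -0.32 ± 0.45 with the same mix, lower at 5 of 6 time points, and -1.18 ± 0.67 without, and Top2a had 0.05 ± 0.49 with and -0.71 ± 0.55 without.

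**Figure D5:**
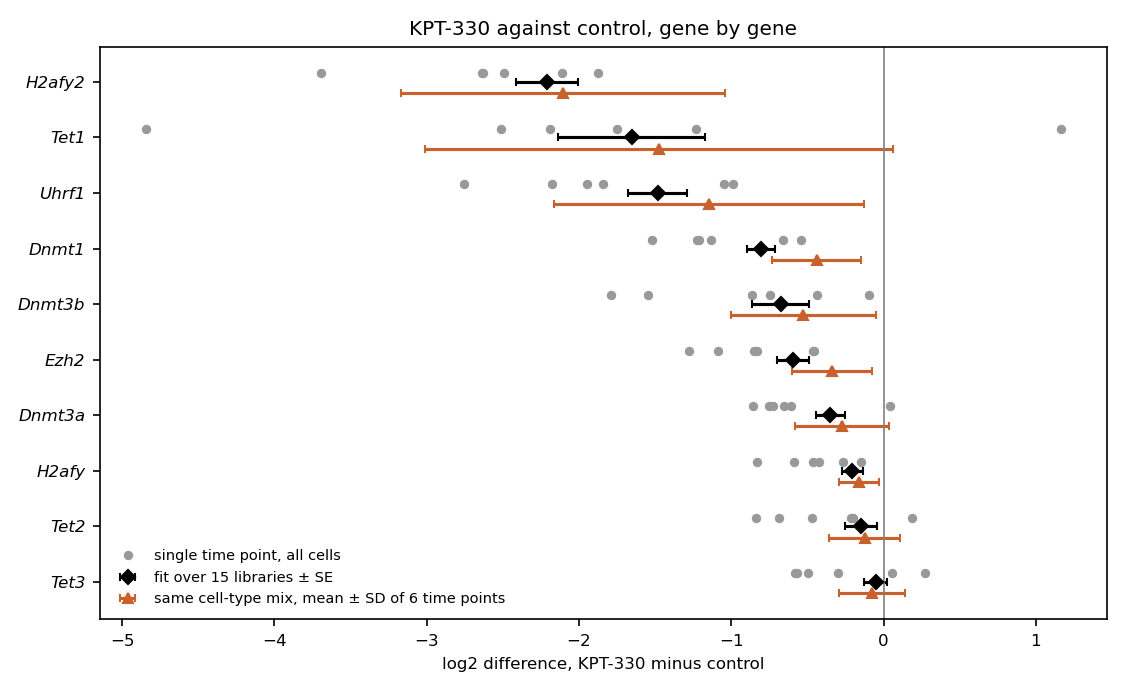
Log2 difference between KPT-330 and control (horizontal axis) for each gene: grey points are ratios of levels per 10000 UMIs at single time points, diamonds the edgeR fit over 15 libraries ± SE, and triangles the mean ± SD of 6 time points at the same cell-type mix. H2afy2, Tet1 and Uhrf1 lie farthest to the left, and Tet2 and Tet3 lie near 0.

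Within single types, counts were lower and the fits wider. Dnmt1 was lower with KPT-330 in 8 of the 9 types fitted, with differences from -0.53 to 0.27 log2 units, and Uhrf1 in 8 of 8, from -1.38 to -0.07. Ezh2 was lower in 7 of 9 and Dnmt3a in 8 of 9. In stem III-like cells (4 KPT-330 and 4 control libraries) Uhrf1 differed by -1.04 ± 0.21 and Dnmt1 by -0.53 ± 0.15. Stem III-like Uhrf1 at day 0.25 was 1.83 in the control and 0.519 with KPT-330, at day 1 it was 2.19 and 1.03, at day 2 it was 1.88 and 1.71, and at day 3 it was 3.11 and 1.39. The KPT-330 value was the lower at each of these days. In stem II-like cells Uhrf1 differed by -1.23 ± 0.30 and Dnmt1 by -0.53 ± 0.17. In stem I-like cells Dnmt1 differed by -0.51 ± 0.15. Since the 10 genes were picked on this contrast, no call is given for them within types. The share of all genes past the threshold was 4.39% in stem I-like cells, 4.7% in early Paneth-like, 3.21% in enterocyte-like, 2% in Paneth-like and 1.11% in hormone-led enteroendocrine-like cells. It was 0.672% in stem II-like, 0.446% in Neurog3-led enteroendocrine-like, 0.224% in stem III-like and 0.16% in early secretory-like cells.

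H2afy2 could be fitted in 1 type alone, the Neurog3-led enteroendocrine-like cells, with -1.77 ± 0.46. In the controls of days 1, 2, 3 and 4, these cells held 9, 32, 29 and 15 H2afy2 UMIs. In the KPT-330 libraries they held 0 at day 1, 5 at day 2, 6 and 2 at day 3 and 0 at day 4, in fewer cells. In stem III-like cells of days 0.25, 1, 2 and 3 the H2afy2 level was 0.0475, 0.0781, 0.138 and 0.104 in the controls and 0.0260, 0.0171, 0.0403 and 0 with KPT-330, from 25, 9, 11 and 4 UMIs against 5, 1, 2 and 0. The KPT-330 value was the lower on each day. The types stem II and stem III were also pooled into a single group, a step added after the data were seen. In this pool H2afy2 differed by -1.995 ± 0.474 and Uhrf1 by -0.94 ± 0.21, and 0.562% of all genes were past the threshold. H2afy stayed between -0.22 and 0.27 over 9 types and Tet3 between -0.22 and 0.21, with both signs for each.

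Whether the KPT-330 difference changed over days was tested by an interaction with day. None of the 12812 genes passed (edgeR quasi-likelihood test, 0% called), with 1343 at an unadjusted p under 0.05. Dnmt3b had the smallest unadjusted p of the 10 genes (0.0215, edgeR adjusted p = 0.363), with -0.21 ± 0.082 log2 units per day. H2afy2 changed by -0.06 ± 0.12 per day, Uhrf1 by -0.01 ± 0.097 and Dnmt1 by -0.01 ± 0.046, and their adjusted p were 0.919, 0.998 and 0.962. A further test asked whether the difference in stem III-like cells differed from that in all other cells of the same libraries (4 KPT-330 and 7 control libraries). The controls included those of days 4 and 6, which had no KPT-330 library with enough stem III-like cells. The fit had no term for day by cell group, so day and KPT-330 cannot be fully told apart in this test. It called 1 of 12108 genes (0.00826%), which was not one of the 10, and 572 had an unadjusted p under 0.05. Without either day 6 control library it called 0. None of the 10 genes passed, with Uhrf1 at -0.42 ± 0.69, Dnmt1 at -0.22 ± 0.41 and H2afy2 at 0.52 ± 0.73 (edgeR adjusted p = 1 for each). These errors leave room for sizeable differences in either direction.

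Among the 54 related genes, 15 were lower with KPT-330, 1 was higher and 38 did not pass, where 14.2% of all genes were lower and 14.4% higher. The list median was -0.13 log2 units against -0.0023 over all genes. Hells, the remodeller that opens chromatin for methylation, fell by 1.21 ± 0.21 on the log2 scale (edgeR adjusted p = 0.00159) and Cdca7, its partner, fell by 0.60 ± 0.14 (adjusted p = 0.00656). Gadd45a, a stress gene linked to demethylation, fell by 0.63 ± 0.12 (edgeR adjusted p = 0.00208), and Parp1, whose product binds macroH2A1, fell by 0.51 ± 0.096 (adjusted p = 0.00243). Mat2b, the regulatory subunit of the enzyme that makes the methyl donor, was the gene that rose, by 0.24 ± 0.063 (edgeR adjusted p = 0.0132). The Mat2b call was lost under 4 alternatives: with library totals alone (-0.03), without the filter on low counts (edgeR adjusted p = 0.111), without day 2 (adjusted p = 0.0714) and without day 6 (adjusted p = 0.0904). With library totals alone 34 list genes were lower and 0 higher. By group, 3 of 6 maintenance partners were lower, 3 of 7 demethylation genes, 3 of 9 histone variant and partner genes, 3 of 10 PRC1 genes, 2 of 10 PRC2 genes, 1 of 7 methyl-CpG readers, and neither of the H3K27 demethylases. S phase genes are on the list too, and the list as a whole was drawn up with earlier results of these data known.

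Across the 17 libraries, the genes with the pattern most like Dnmt1 among 10521 compared were Mcm7 (Pearson r = 0.992), Mcm6 (r = 0.991), Nasp (r = 0.987) and Brca1 (r = 0.985). Mcm6 and Mcm7 encode subunits of the replicative helicase, Nasp a histone chaperone, and Brca1 a DNA repair protein. For H2afy they were Srsf9 (r = 0.954), Pkmyt1 (r = 0.93), Mcm2, Rnf187 and Pold1 (r = 0.917 each). These are descriptions over log2 counts per library size (TMM), and the libraries share days, treatment and cell-type mix.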

How the data were processed

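UMI counts per gene and barcode were deposited by the authors for 17 libraries, not normalized. The authors demultiplexed with bcl2fastq, used STAR on mm10, and counted molecules with the Drop-seq tools. The gene annotation used for counting is not given in the sources used here. The methods and the Reporting Summary name different Drop-seq versions. Only the 19877 cells named in the deposited merged table were used, out of 26229 barcodes. The authors removed doublets before that, and no further doublet call was made.

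Counts were summed per library, or per library and cell type with at least 20 cells, and tested in R 4.3.3 with edgeR 4.0.16 (TMM factors, filterByExpr, quasi-likelihood F test, Benjamini-Hochberg over all genes, threshold 0.05). DESeq2 1.42.0 was an alternative. Cells were clustered with Seurat 5.3.0 and sctransform 0.4.2 (9 components, 20 neighbours, resolution 0.45). Of the 3000 variable genes 20 were left out, of which 6 were genes described here and the rest came from the related genes and Xpo1. The fits were tested on simulated data. Positions are from GENCODE M21 and promoter windows from RefSeq.

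Named genes are the 10 described, the related genes past the threshold with the smallest p (at most 4 per direction and test), 5 nearest patterns each for Dnmt1 and H2afy, and Mki67, Top2a and Xpo1. Of the genes this rule or a count would name, 2 are not reported here. Members and lists were chosen with earlier results of these data known. Libraries of different groups with the same replicate number were checked for shared deviations. Only the day 6 groups did so clearly (r = 0.526), and the day 3 KPT-330 libraries did not follow day 0 (r = -0.0317), so the numbers were not taken to pair the libraries.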

Additional observations from a re-analysis of the deposited data

How the results depend on the processing

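Log2 values of the 10 genes kept their sign in the comparison of KPT-330 with control under all 20 alternatives, and the 4 genes that fell over time kept theirs under all 14. The number of genes past the threshold for KPT-330 against control was 2092 without day 3 and 2420 without day 4, in place of 3661, and leaving out 1 replicate gave 2881 to 3969. Dnmt3a lost its place without day 3, Dnmt3b without day 6, and Tet1 without either of those days. With library totals only, Tet2 (-0.41) and Tet3 (-0.32) were past it and H2afy was at -0.47. The time trend gave 2138 genes in place of 4805 in the ENR+CD libraries only, and 3630 to 4646 without 1 replicate; on the square root of day, Tet2 (0.22) and H2afy (-0.21) also passed. With library totals only, 37.9% of the genes past the threshold in the time trend rose, in place of 48.3%. The interaction gave 304 genes without the filter on low counts, where none of the 10 genes was called, and 0 to 2 without 1 replicate: Cenpf without the day 3 KPT-330 replicate 2, and Cachd1 and Zfp618 without the day 6 control replicate 1. Within cell types, 2709 genes were called without the filter, in place of 1548. The stem III-like difference gave 2 genes without the filter, 0 with types set by the highest marker score, and 0 to 1 without 1 replicate, the 0 being without either day 6 control. With the replicate number as a block, KPT-330 against control gave 3957 genes, the time trend 4596 and the interaction 1 (Aqp8), and no call of the 10 genes changed; the replicate block is not a design feature, since the numbers do not pair the libraries throughout. The highest cell type was the same for 7 of 10 genes with marker scores and for 9 with per-cell means or at least 50 cells. The cause of these changes was not tested.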

Other observations

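Xpo1, the gene of the exporter that KPT-330 binds, fell over time in the untreated libraries by 0.20 ± 0.050 log2 units per day (edgeR adjusted p = 0.00955), alongside Mki67 (-0.45 ± 0.093, adjusted p = 0.00496) and Top2a (-0.32 ± 0.095, adjusted p = 0.0216). Xpo1 was at 1.69 and 1.56 UMIs per 10000 at day 0 and at 0.664 and 0.672 in the day 6 controls. With KPT-330 it was at 5.01 at day 0.25, 2.501 at day 1, and 1.03 and 1.69 at day 6.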
